A study of Homo sapiens with 6 samples.

Results

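The 37 genes described here encode proteins that hold cells to each other and to their surroundings: cadherins and protocadherins, adhesion molecules with immunoglobulin folds, a neurexin and its neuroligin partners, claudins, the catenins and scaffold beneath them, and the CD44 and syndecan co-receptors. They were chosen by symbol from the 57659 genes of the deposited counts, with NECTIN2 and NECTIN3 also looked up under their older symbols PVRL2 and PVRL3, and all 37 matched 1 Ensembl gene each. RNA came from IMR90, a strain of primary human fetal lung fibroblasts, grown in bulk culture. In the 3 knockdown libraries the cells expressed a short hairpin RNA against macroH2A1, a histone H2A variant with a large globular domain. In the 3 control libraries they expressed a hairpin against luciferase, an insect gene that human cells lack. Cells of both groups thus carry a hairpin, and the labels call the libraries of a group biological replicates. The hairpins' sequences and number, and how the replicate cultures were set up, are not stated there.

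Cadherins bind the same cadherin on the neighbouring cell in the presence of calcium, and their tails reach the actin cortex through beta-catenin and alpha-catenin, while p120-catenin holds them at the surface. Claudins seal tight junctions, which are mostly epithelial, and immunoglobulin-fold molecules serve both contacts between like cells and contacts with leukocytes. CD44 binds hyaluronan, and syndecans carry heparan sulfate chains that hold matrix proteins and growth factors. Lung fibroblasts are known for the mesenchymal cadherins CDH2 and CDH11, for THY1 and for CD44.

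The knockdown libraries held 3741087 to 5322851 reads assigned to genes and the control libraries 3744716 to 6421605, so that 3 counts, the limit a count of 0 allows, stood for 0.564 to 0.802 and 0.467 to 0.801 counts per 1000000. MACROH2A1 was at 38.6, 43.4 and 39.6 CPM (counts per 1000000 over scaled library sizes) in the knockdown libraries and at 91.3, 87.3 and 84.2 CPM in the control libraries. The fibroblast genes VIM, PDGFRA and COL3A1 were abundant in all 6 libraries, VIM at 1701 ± 21.7 CPM in knockdown and 1701 ± 75.0 CPM in control cells (SD, n = 3 each), while the epithelial CDH1 had 1 count in each group and the endothelial PECAM1 had 0. Of 11 tested fibroblast markers 7 rose by the test given below, where 3.90% of all genes tested did. Positive fold changes were found for 10 of the 11, with a median log2 fold change of 0.73. The summed level of the 12 listed was 11937 to 12673 CPM in the knockdown and 7392 to 8424 CPM in the control libraries. What part this difference has in the results was not tested.

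Of the 37 adhesion genes, 34 had enough counts to be tested, 4 rose and 9 fell in the knockdown, called by the quasi-likelihood test of edgeR at a p under 0.05 after Benjamini-Hochberg adjustment over 13445 genes. Among all genes tested 8.21% were called, 3.90% as higher and 4.31% as lower. The adhesion genes were measured more deeply than most, with a median level of 64.1 CPM against 15.4 CPM over all genes tested, and they were chosen with earlier results of these data known, so the larger share among them is a description only. The genes that rose were PCDH18, VCAM1, MCAM and CTNND1. Those that fell were CLDN1, NRXN3, CDH13, PCDH9, CADM1, CLDN11, CD44, SDC4 and ALCAM. The median log2 fold change was -0.03 over the 34 tested adhesion genes and 0.01 over all genes tested, and groups did not overlap for 19 of the 34, against 30.4% of all genes tested. In bulk RNA, fewer cells that express a gene and less of its RNA per cell cannot be told apart.

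**Figure D1:**
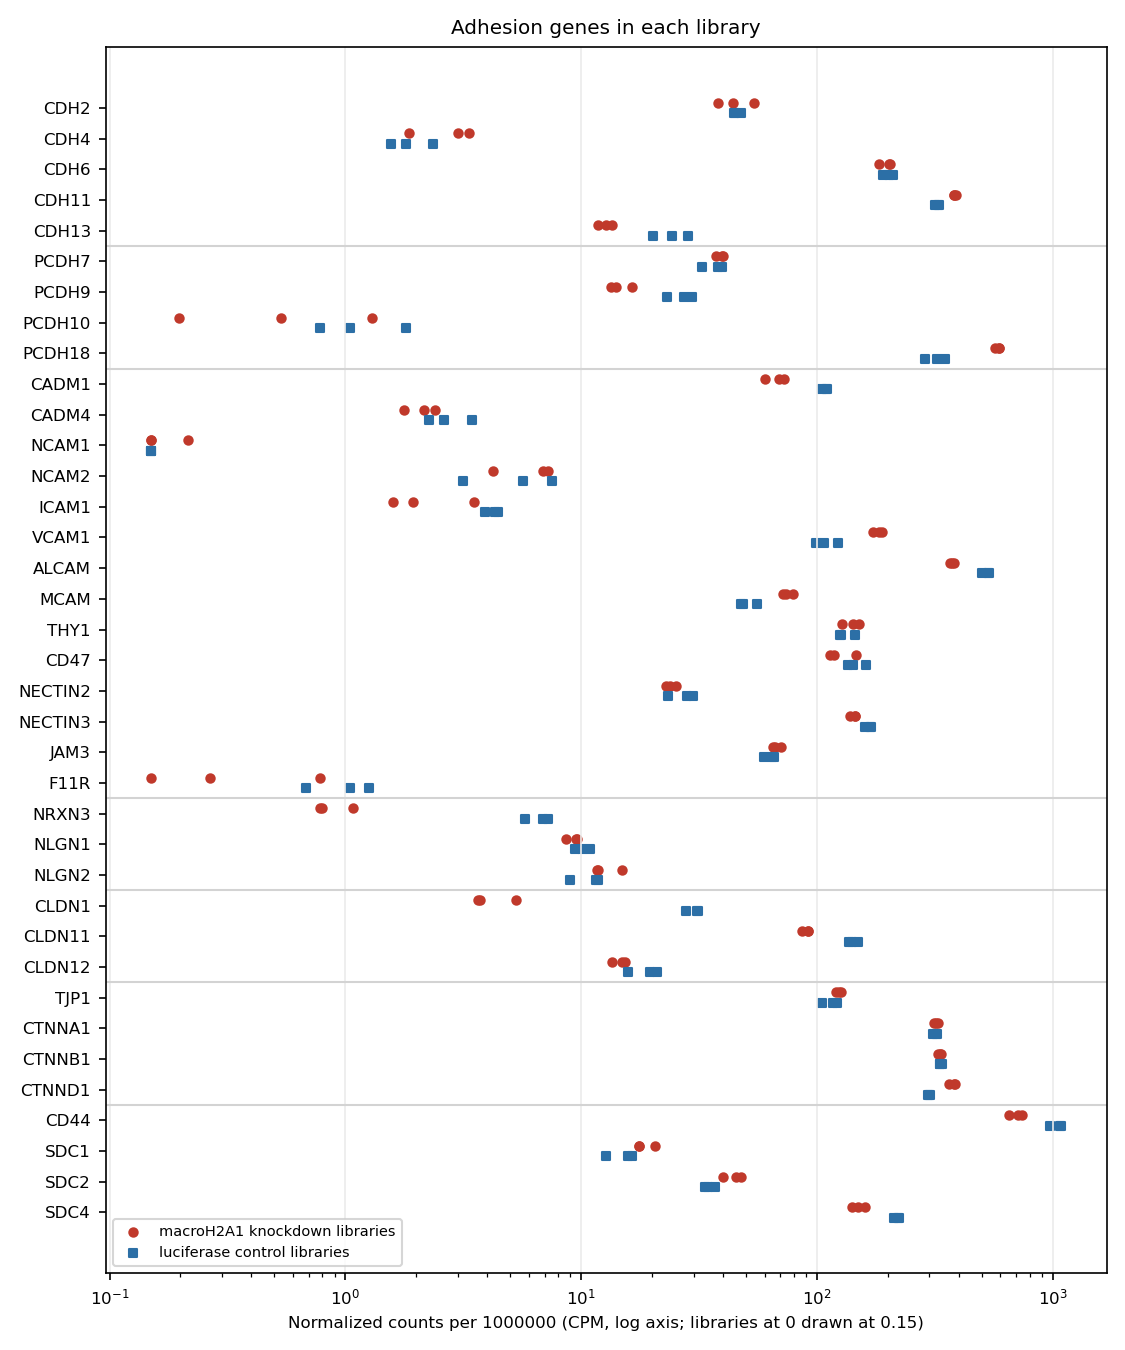
Normalized level of each of the 37 adhesion genes in CPM on a log axis, with 1 point per library (circles, macroH2A1 knockdown; squares, luciferase control) and grey lines between families. CD44 and PCDH18 lie at the right end, CLDN1 and NRXN3 have the widest gaps between the groups, and NCAM1, F11R and PCDH10 lie at the left end.

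**Figure D2:**
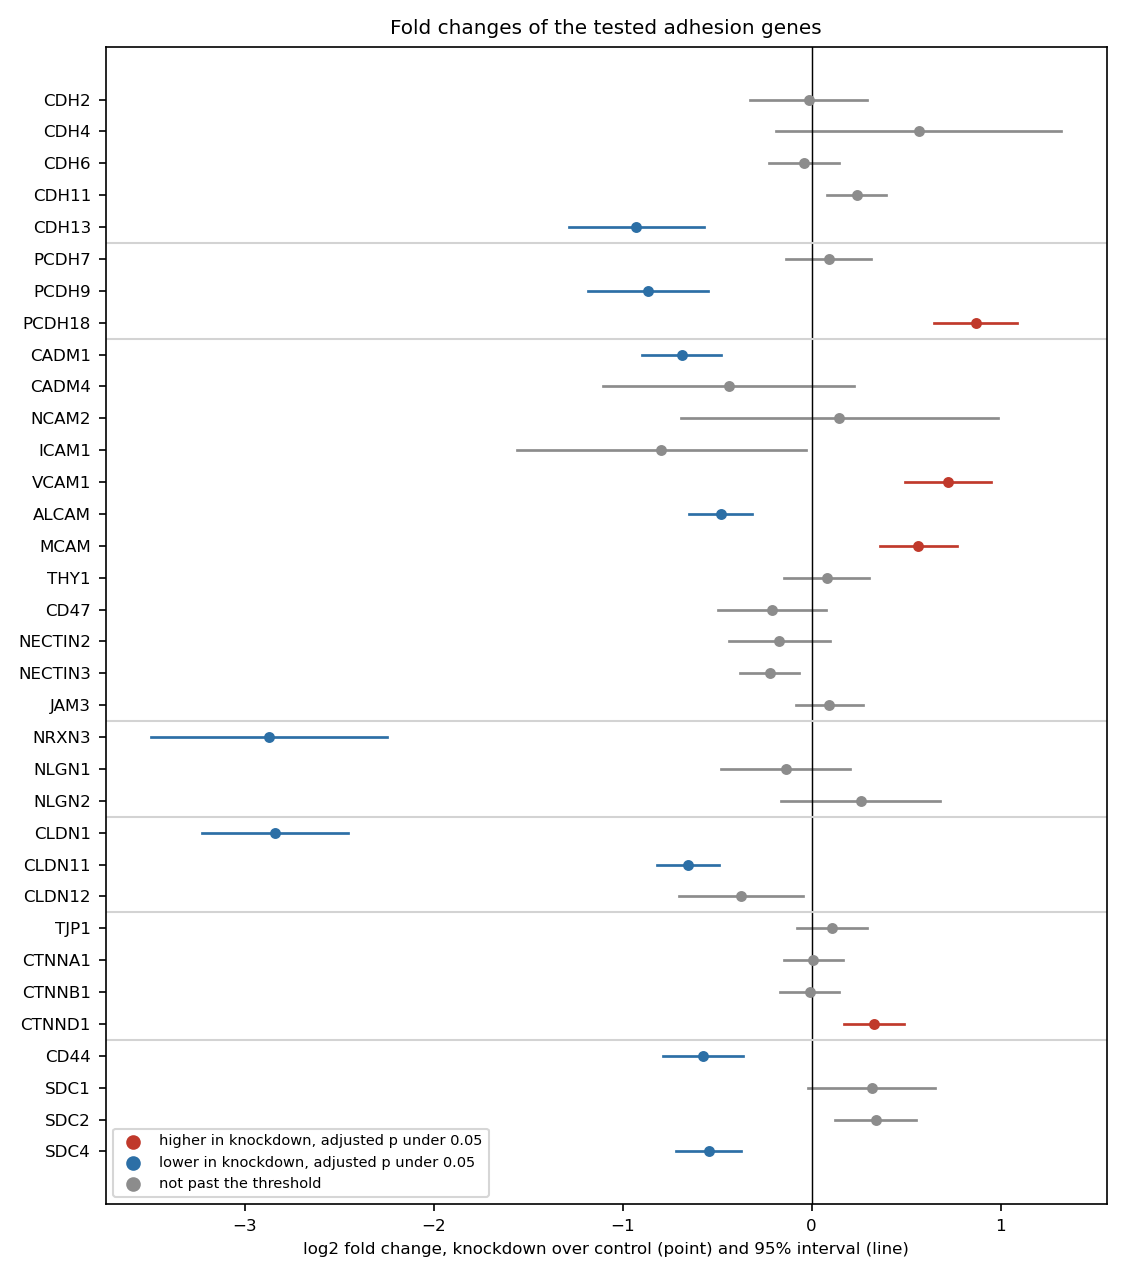
Log2 fold change of the 34 tested adhesion genes, knockdown over control, with 95% intervals from the edgeR fit (n = 3 per group) and colours for genes past the adjusted threshold. CLDN1 and NRXN3 stand near -2.8 to -2.9, while no other gene is past -0.93 or above 0.87.

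The promoters of CLDN1 and NRXN3, which fell most, and of PCDH18 and VCAM1, which rose most, are shown as RefSeq gives them for the build GRCh38.p14, from 250 bases before to 50 bases after the annotated start, 5′ to 3′ on the strand of the gene. RefSeq windows matched 26 of the 37 genes. Capitals mark matches, on either strand, to the TATA box TATAAA, the GC box GGGCGG and the NF-kB consensus; the E-box CAGGTG and the AP-1 motif TGANTCA were also searched. CLDN1 lies at chr3:190322397-190322696 (minus strand), NRXN3 at chr14:78170123-78170422 (plus), PCDH18 at chr4:137532445-137532744 (minus) and VCAM1 at chr1:100719492-100719791 (plus).
CLDN1: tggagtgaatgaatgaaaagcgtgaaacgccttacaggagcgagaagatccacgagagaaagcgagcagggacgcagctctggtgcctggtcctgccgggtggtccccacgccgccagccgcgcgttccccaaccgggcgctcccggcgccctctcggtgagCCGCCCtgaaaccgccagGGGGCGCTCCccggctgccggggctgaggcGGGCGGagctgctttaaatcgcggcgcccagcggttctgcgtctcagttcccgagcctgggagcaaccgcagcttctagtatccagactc
NRXN3: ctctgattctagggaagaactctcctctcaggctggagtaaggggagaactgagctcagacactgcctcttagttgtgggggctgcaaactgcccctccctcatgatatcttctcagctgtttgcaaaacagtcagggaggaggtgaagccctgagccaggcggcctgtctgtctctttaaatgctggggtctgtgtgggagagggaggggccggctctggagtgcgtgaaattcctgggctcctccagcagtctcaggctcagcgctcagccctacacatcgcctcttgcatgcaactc
PCDH18: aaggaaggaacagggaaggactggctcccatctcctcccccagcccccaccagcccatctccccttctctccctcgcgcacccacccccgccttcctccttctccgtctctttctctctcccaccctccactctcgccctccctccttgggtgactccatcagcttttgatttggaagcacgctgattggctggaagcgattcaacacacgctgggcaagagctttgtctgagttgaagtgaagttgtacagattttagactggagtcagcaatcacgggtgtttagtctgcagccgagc
VCAM1: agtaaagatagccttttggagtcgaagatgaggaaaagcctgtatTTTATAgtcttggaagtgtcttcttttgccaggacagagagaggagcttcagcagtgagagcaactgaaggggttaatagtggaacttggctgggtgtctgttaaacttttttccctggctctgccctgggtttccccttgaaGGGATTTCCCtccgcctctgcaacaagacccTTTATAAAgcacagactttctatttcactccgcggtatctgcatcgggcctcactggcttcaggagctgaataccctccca

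VCAM1 holds a match to the NF-kB consensus, met on either strand by the same 10 bases, that begins 62 bases before the start, and overlapping TATA boxes at -31 and -29, besides another at -205. CLDN1 holds GC boxes at -88 and -40 and an NF-kB match at -70. The windows of NRXN3 and PCDH18 hold none of the 5 motifs. Over the 26 windows, 19.2% had an NF-kB match, 69.2% a GC box, 7.69% a TATA box, 26.9% the E-box and 3.85% the AP-1 motif, against 11.3%, 45.0%, 11.5%, 20.6% and 7.71% of all 35116 windows. Only the first window listed was taken for each adhesion gene, while the 35116 were not reduced in this way. The shares thus come from unlike sets and are a description only. Gene counts do not say which start the cells used, NRXN3 has several, and a match is letters in a window, not a site.

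None of the 4 cadherins that span the membrane passed the edgeR test. CDH11, or OB-cadherin, a cadherin of mesenchymal cells, had 389, 381 and 380 CPM in the knockdown and 329, 318 and 328 CPM in the control libraries. Its groups did not overlap, but the log2 fold change of 0.24 (SE 0.07) did not pass (edgeR adjusted p = 0.0750). CDH11 did pass with limma-voom (adjusted p = 0.0167) and in the fit limited to genes listed by the authors (0.00331), within 0.00331 to 0.319 over 15 refits. CDH2, or N-cadherin, had 38.3, 44.0 and 54.2 CPM in the knockdown and 44.7, 47.9 and 45.1 CPM in the control libraries. The knockdown libraries lay on both sides of the control libraries, and the 95% interval of the log2 difference ran from -0.32 to 0.29. CDH6, or K-cadherin, averaged 196 ± 11.7 CPM in knockdown and 202 ± 10.1 CPM in control cells, with a log2 interval of -0.23 to 0.14. CDH4, or R-cadherin, was scarce, with 38 knockdown and 27 control counts in all, and its interval of -0.19 to 1.32 leaves a wide range.

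CDH13, or T-cadherin, differs from these in having a lipid anchor in place of a cytoplasmic tail, and it was the cadherin that fell. It had 11.8, 13.6 and 12.8 CPM in the knockdown and 20.2, 24.3 and 28.3 CPM in the control libraries. Every knockdown library lay below every control library. The drop was 1.90-fold (log2 fold change -0.93, SE 0.15, edgeR adjusted p = 0.0148). CDH13 lost its call without knockdown replicate 1, knockdown replicate 3 or control replicate 2 (adjusted p = 0.0562, 0.0542 and 0.0590, within a range of 0.000143 to 0.0590 over 15 refits), with log2 fold changes from -0.93 to -0.86 in those 3.

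Among the catenins of cadherin complexes, CTNND1 was called and CTNNB1 and CTNNA1 were not. CTNNB1, which encodes beta-catenin, also the nuclear effector of WNT signalling, averaged 332 ± 5.87 CPM in knockdown and 334 ± 3.41 CPM in control cells, and CTNNA1, the alpha-catenin, 320 ± 5.38 CPM and 318 ± 5.07 CPM (SD, n = 3 each). Their 95% intervals on the log2 scale ran from -0.16 to 0.14 and from -0.14 to 0.16. CTNND1, the gene of p120-catenin, had 365, 384 and 383 CPM in the knockdown and 296, 300 and 303 CPM in the control libraries. The groups did not overlap and CTNND1 rose 1.26-fold (log2 fold change 0.33, SE 0.07, edgeR adjusted p = 0.0315). It lost this call in 9 of 15 refits, among them each of the 6 that left out a library (adjusted p = 0.0597 to 0.110, within 0.000189 to 0.110 over all 15), with a log2 fold change of 0.32 to 0.37 throughout. Its exons overlap those of a read-through transcript with the neighbouring TMX2 on the same strand, which had 0 counts, so reads of CTNND1 may have been left out as ambiguous. TJP1, or ZO-1, the scaffold under tight and adherens junctions, had 124 ± 2.85 CPM in knockdown and 115 ± 8.56 CPM in control cells, a log2 interval of -0.08 to 0.29.

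Protocadherins, which lack the catenin-binding tail of the cadherins above, went both ways. PCDH18 had 590, 572 and 591 CPM in the knockdown and 351, 322 and 287 CPM in the control libraries. The knockdown libraries lay close together and far above the control libraries. It rose 1.83-fold (95% interval 1.57 to 2.13; edgeR adjusted p = 0.00351), and per length of exon it became the most abundant of the 37 genes in the knockdown, at 87.5 ± 1.58 counts per 1000 bases and 1000000 counts (RPKM), against rank 4 in the control at 47.9 ± 4.75 RPKM. PCDH9 had 13.3, 14 and 16.5 CPM in the knockdown and 23.2, 29.5 and 27.3 CPM in the control libraries. It fell 1.82-fold without overlap (log2 fold change -0.87, SE 0.13, edgeR adjusted p = 0.0129), though not past the threshold without knockdown replicate 1 or control replicate 2 (adjusted p = 0.0508 and 0.0535, within 8.7e-05 to 0.0535 over 15 refits). PCDH7 averaged 39.1 ± 1.40 CPM in knockdown and 36.7 ± 3.77 CPM in control cells, with a log2 interval of -0.13 to 0.32. PCDH10 had 9 knockdown and 17 control counts and was not tested.

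All 3 claudins had negative fold changes, and CLDN1 and CLDN11 fell. CLDN1, a sealing protein of epithelial tight junctions, had 56 counts in all in the knockdown and 440 in the control. These correspond to 3.73, 3.67 and 5.31 CPM in the knockdown and 30.9, 27.9 and 31.5 CPM in the control. Every control library lay far above every knockdown library. CLDN1 was 7.15-fold lower (95% interval 5.48 to 9.34; log2 fold change -2.84, SE 0.16, edgeR adjusted p = 0.000757), with log2 fold changes of -3.01 to -2.74 over 15 refits.

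CLDN11, known from the sheaths of oligodendrocytes and from Sertoli cells, was the main claudin of these fibroblasts. It had 92.0, 92.1 and 86.9 CPM in the knockdown and 141, 149 and 137 CPM in the control libraries, and fell 1.57-fold with no overlap (log2 fold change -0.65, SE 0.07, edgeR adjusted p = 0.00346). CLDN12, a claudin that lacks the usual scaffold-binding end, had 15.3, 13.6 and 14.9 CPM in the knockdown and 21.0, 15.9 and 19.7 CPM in the control libraries. Its log2 fold change of -0.37 (SE 0.14) did not pass (edgeR adjusted p = 0.156), and its exons overlap those of CDK14 and GTPBP10, so its counts are uncertain. The 3 claudins together summed to 107 to 111 CPM in the knockdown and 188 to 193 CPM in the control libraries. Per length, CLDN11 was at 24.2 ± 0.8 RPKM and CLDN1 at 1.16 ± 0.255 RPKM in knockdown cells, against 38.1 ± 1.60 and 8.21 ± 0.524 RPKM in control cells.

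The summed level of epithelial markers, mostly a single keratin, was lower along with CLDN1, and its part in the CLDN1 drop was not tested. The summed level of 12 epithelial markers was 7.65 to 11.9 CPM in the knockdown and 27.7 to 30.0 CPM in the control libraries, and most of it was KRT18, a keratin, at 8.12 ± 2.62 CPM in knockdown and 24.3 ± 1.53 CPM in control cells. KRT18 fell (edgeR adjusted p = 0.0108), though not past the threshold without control replicate 1 (0.0509, within 2.24e-08 to 0.0509 over 15 refits). The other marker tested had a log2 fold change of -1.02 without overlap. It was not called, with an unadjusted edgeR p under 0.05. Of the 12, 10 had too few counts to test. The defining markers were at or near 0: EPCAM had 2 knockdown and 5 control counts, CDH1 1 and 1, and SFTPB 0 in all libraries. Of 19 other claudins and tight-junction membrane proteins, only JAM2 and MARVELD1 could be tested and neither passed with edgeR, at an unadjusted p under 0.05, with DESeq2 or with limma-voom.

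**Figure D3:**
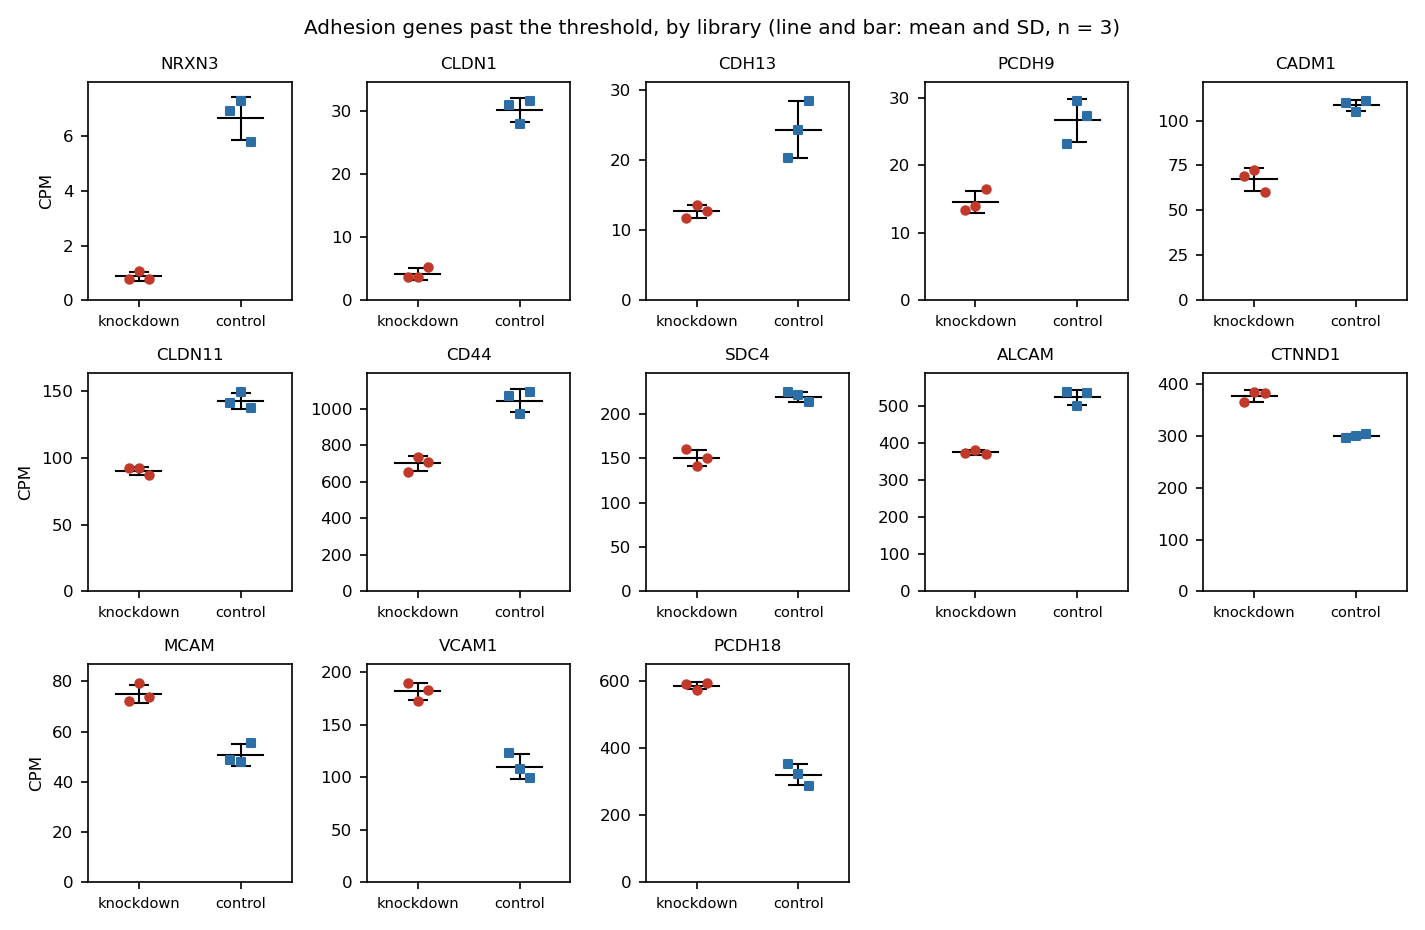
CPM of the 13 adhesion genes past the adjusted threshold, 1 panel per gene in order of fold change, with points for the 3 knockdown libraries (left, circles) and the 3 control libraries (right, squares), and lines with bars for mean and SD. The groups do not overlap in any of the 13 panels.

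Immunoglobulin-fold molecules that leukocytes bind went apart. VCAM1, the ligand of the integrin VLA-4, had 189, 173 and 183 CPM in the knockdown and 122.9, 107.5 and 99.4 CPM in the control libraries. The lowest knockdown library was above the highest control library, and VCAM1 rose 1.65-fold (95% interval 1.41 to 1.93; edgeR adjusted p = 0.00764). ICAM1, the ligand of the integrin LFA-1, was scarce, with 3.53, 1.94 and 1.59 CPM in the knockdown and 3.92, 4.31 and 4.46 CPM in the control libraries. Its groups did not overlap, but the log2 fold change of -0.80 (SE 0.32) did not pass (edgeR adjusted p = 0.189). ALCAM, a molecule that binds itself and CD6 on T cells, was abundant, with 374, 382 and 369 CPM in the knockdown and 536, 500 and 533 CPM in the control libraries. It fell 1.40-fold (log2 fold change -0.48, SE 0.07, edgeR adjusted p = 0.0108), but not past the threshold without knockdown replicate 3 or control replicate 1 (adjusted p = 0.0533 and 0.0510, within 1.76e-06 to 0.0563 over 15 refits).

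MCAM, or CD146, known from endothelial cells and pericytes, had 72.0, 79.2 and 73.9 CPM in the knockdown and 48.6, 47.9 and 55.6 CPM in the control libraries. It rose 1.48-fold without overlap (log2 fold change 0.57, SE 0.09, edgeR adjusted p = 0.0125), though not without control replicate 1 or 2 (adjusted p = 0.0538 and 0.0542, within 2.94e-05 to 0.0542 over 15 refits). MCAM shares exon sequence with CBL on the other strand, and no source states whether the counting used strand, so its counts are uncertain. CBL had 483 knockdown and 557 control counts. The summed level of 10 endothelial markers, most of it TEK, was 142 to 148 CPM in the knockdown and 66.9 to 72.0 CPM in the control libraries. Of 3 tested, TEK and KDR were called as higher, and the other had a log2 fold change of -0.42 and was not called. The part of these markers in the rise of MCAM was not tested. PECAM1 had 0 counts in all libraries, and CDH5, or VE-cadherin, 1 count in the knockdown and 0 in the control. None of 8 tested smooth muscle and pericyte markers passed with edgeR, DESeq2 or limma-voom (2 at an unadjusted p under 0.05), and their summed level was 367 to 405 CPM in the knockdown and 411 to 447 CPM in the control libraries.

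CADM1, which joins cells through itself and through nectin-like partners, had 69.3, 72.7 and 60.1 CPM in the knockdown and 110, 105 and 111 CPM in the control libraries. All 3 knockdown libraries lay below the control libraries, and CADM1 fell 1.61-fold (95% interval 1.39 to 1.86; edgeR adjusted p = 0.00695). Its relative CADM4 had 28 knockdown and 42 control counts and a log2 interval of -1.10 to 0.23. The nectins NECTIN3 and NECTIN2, which help to start adherens junctions, had log2 fold changes of -0.22 (SE 0.07) and -0.17 (SE 0.11) that did not pass (edgeR adjusted p = 0.0897 and 0.427). NECTIN3 had 146, 138 and 145 CPM in the knockdown and 170, 161 and 169 CPM in the control libraries, with no overlap, and passed with limma-voom (adjusted p = 0.0475) and in a fit restricted to the genes that the authors' deposited table lists (0.0473), within 0.0473 to 0.416 over 15 refits.

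The remaining immunoglobulin-fold genes did not pass the edgeR test. THY1, a marker of lung fibroblasts with a lipid anchor, averaged 140 ± 11.6 CPM in knockdown and 133 ± 10.8 CPM in control cells (log2 interval -0.14 to 0.30). CD47, the signal to macrophages not to engulf, averaged 126 ± 17.9 CPM in knockdown and 146 ± 13.4 CPM in control cells, with an interval of -0.50 to 0.08. JAM3, a junctional adhesion molecule, averaged 67.5 ± 2.83 CPM in knockdown and 63.2 ± 3.28 CPM in control cells, with an interval of -0.08 to 0.27, and its exons overlap those of NCAPD3 on the other strand. The related F11R, or JAM-A, had 5 knockdown and 15 control counts, a control to knockdown ratio of 2.79 with an exact 95% counting interval of 0.964 to 9.82, and was not tested. NCAM1, the neural cell adhesion molecule, had 1 knockdown and 0 control counts and was also not tested. NCAM2 had 85 counts in each group and ranged from 4.25 to 7.26 CPM in the knockdown and from 3.15 to 7.53 CPM in the control libraries.

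Among the synaptic adhesion genes, the neurexin fell and its neuroligin partners did not pass the test. NRXN3, the presynaptic receptor that binds neuroligins in neurons, had 4, 5 and 3 counts in the knockdown and 44, 32 and 22 in the control libraries. These are 0.785, 1.08 and 0.797 CPM in the knockdown and 6.90, 7.26 and 5.77 CPM in the control libraries, with a wide gap between the groups. NRXN3 was 7.31-fold lower in the fit (log2 fold change -2.87, SE 0.26, edgeR adjusted p = 0.00195), and the ratio of its summed counts, control over knockdown, was 7.60 with an exact 95% counting interval of 4.16 to 15.2. NLGN1 averaged 9.23 ± 0.519 CPM in knockdown and 10.1 ± 0.727 CPM in control cells, and NLGN2 12.8 ± 1.82 and 10.8 ± 1.58 CPM, with log2 intervals of -0.48 to 0.21 and -0.16 to 0.68. Markers of neural and glial cells were nearly absent, with a summed level over 7 genes of 1.73 to 3.99 CPM in the knockdown and 1.36 to 3.41 CPM in the control libraries and SOX10 and RBFOX3 at 0.

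CD44 and the syndecans, the receptors of glycosaminoglycan biology on this list, did not move as a block. CD44, the main receptor for hyaluronan, had 656, 739 and 711 CPM in the knockdown and 1072, 973 and 1091 CPM in the control libraries. The groups were well apart, and CD44 fell 1.49-fold (log2 fold change -0.57, SE 0.09, edgeR adjusted p = 0.0131). CD44 was not called without knockdown replicate 3 or control replicate 1 (adjusted p = 0.0548 in each case, within 3.95e-08 to 0.0586 over 15 refits).

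SDC4, the syndecan of focal adhesions, had 160, 141 and 150 CPM in the knockdown and 224, 220 and 213 CPM in the control libraries. No library of one group reached the other, and SDC4 fell 1.46-fold (log2 fold change -0.54, SE 0.07, edgeR adjusted p = 0.00806). SDC2, a syndecan of mesenchymal cells, had 45.5, 47.5 and 39.9 CPM in the knockdown and 33.6, 37 and 34.6 CPM in the control libraries, the opposite order. Its log2 fold change of 0.34 (SE 0.09) did not pass (edgeR adjusted p = 0.0701, within 0.0107 to 0.181 over 15 refits), except in the fit limited to genes listed by the authors (0.0107). SDC1, a syndecan of epithelia and plasma cells, averaged 18.6 ± 1.73 CPM in knockdown and 15.0 ± 2.04 CPM in control cells, with a log2 interval of -0.02 to 0.66.

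Genes that work with the adhesion genes were read from lists of their families and complexes, 117 genes of which 45 could be tested. Of these, 5 rose and 9 fell, where 3.90% and 4.31% of all genes tested did, and their median log2 fold change was 0.08; these lists too were chosen with earlier results known, so the share is a description only. On the hyaluronan side, HAS2, the synthase of hyaluronan, had 15.1, 9.49 and 12.5 CPM in the knockdown and 38.6, 45.6 and 37.8 CPM in the control libraries. HAS2 fell 3.28-fold (log2 fold change -1.71, SE 0.17, edgeR adjusted p = 0.00308). EZR and MSN, which code for ezrin and moesin, linkers of CD44 to the actin cortex, fell 1.71-fold and 1.28-fold (edgeR adjusted p = 0.0140 and 0.0263). EZR lost its call without knockdown replicate 2 or 3 or control replicate 1 (adjusted p = 0.0542, 0.0562 and 0.0548, within 5.04e-07 to 0.0562 over 15 refits), and MSN in each of the 6 fits without a library (0.0788 to 0.101, within 0.000387 to 0.101). In the same list GPC6, a glypican, rose 1.73-fold (edgeR adjusted p = 0.00458).

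Among other cadherins, DCHS1, a very large cadherin of planar polarity, had 42.2, 35.4 and 33.7 CPM in the knockdown and 12.4, 11.6 and 13.4 CPM in the control libraries, a 2.99-fold rise (edgeR adjusted p = 0.00119). FAT4, which binds the DCHS1 protein, did not pass. FAT3 fell 1.69-fold (edgeR adjusted p = 0.0398), but not past the threshold in 5 of the 6 fits without a library, those without knockdown replicate 2 or 3 and each without a control library (0.0616 to 0.123, within 0.00131 to 0.123). Among immunoglobulin-fold relatives, CHL1, a neural molecule of the L1 family, rose 2.87-fold and BOC, a co-receptor for hedgehog ligands, 3.19-fold, while NEGR1, a lipid-anchored molecule of neurons, fell 1.82-fold and PVR, the nectin-like poliovirus receptor, 1.5-fold (edgeR adjusted p = 0.00144, 0.0165, 0.00155 and 0.0142). BOC lost its call whichever knockdown library was left out (0.0536 to 0.0580, within 6.68e-05 to 0.0580), and PVR without knockdown replicate 3, control replicate 1 or control replicate 2 (0.0593, 0.0518 and 0.0611, within 6.12e-06 to 0.0611).

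FLRT2, a ligand of latrophilins and UNC5 receptors, rose 1.89-fold and its relative FLRT3 fell 1.66-fold (edgeR adjusted p = 0.00426 and 0.0263), although FLRT3 was not called in any of the 6 fits without a library (0.0591 to 0.0887, within 0.00775 to 0.0887). Among other catenins and desmosome genes, CTNNAL1, an alpha-catenin relative, fell 1.44-fold and DSP, the desmosomal plakin, 1.59-fold (edgeR adjusted p = 0.00839 and 0.0401). DSP passed in 1 of the 6 fits without a library, that without knockdown replicate 2 (0.0654 to 0.137 in the other 5, within 0.000732 to 0.137 over 15 refits). Of 10 transcription factors known to repress or raise junction genes, 5 could be tested and none passed with edgeR or DESeq2. An unadjusted edgeR p under 0.05 was found for 2, and limma-voom called 1. All 5 had positive log2 fold changes, from 0.06 to 0.53. SNAI2, a repressor of CDH1 and claudins, had 29.8, 30.4 and 32.7 CPM in the knockdown and 20.6, 20.9 and 26.2 CPM in the control libraries, with no overlap (log2 fold change 0.46, SE 0.11, edgeR adjusted p = 0.0569, within 0.00445 to 0.167 over 15 refits, 3 of which called it). ZEB1 averaged 236 ± 8.02 CPM in knockdown and 227 ± 5.83 CPM in control cells.

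**Figure D4:**
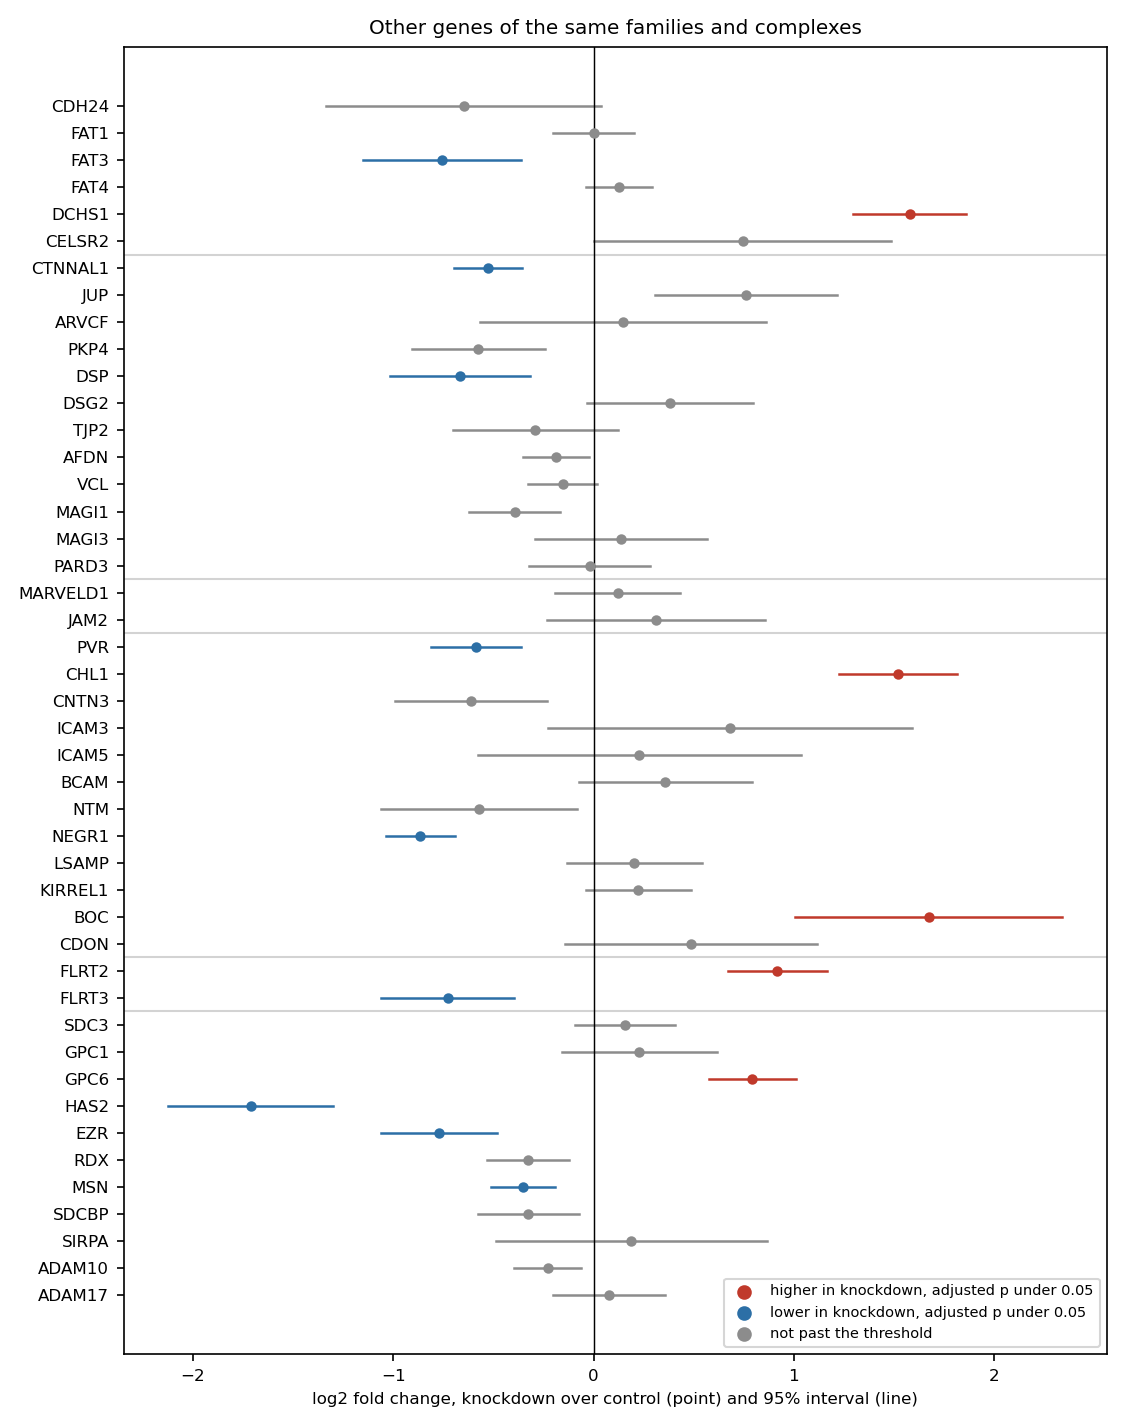
Log2 fold change, knockdown over control, of the 45 tested genes from the same families and complexes, with 95% intervals from the edgeR fit (n = 3 per group), colours for genes past the adjusted threshold and grey lines between families. BOC, DCHS1 and CHL1 lie farthest to the right and HAS2 farthest to the left.

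In the authors' deposited table, 35 of the 37 adhesion genes were listed, 6 as higher and 9 as lower at an adjusted p under 0.05, where 12.0% of the table's 11638 genes were called. All 13 genes called here were among these 15, with CDH11 and SDC2 (authors' adjusted p = 0.00203 and 0.0478) in addition. Both sets of calls rest on the same 6 libraries, so their overlap is not independent evidence. The authors' deposited table gave log2 ratios of -2.82 for CLDN1, -2.90 for NRXN3, 0.88 for PCDH18 and 0.74 for VCAM1.

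By length-adjusted level, CD44, SDC4, ALCAM and PCDH18 were the 4 most abundant adhesion genes in both groups, at 70.1, 57.5, 52.2 and 87.5 RPKM in knockdown and 104, 83.9, 72.8 and 47.9 RPKM in control cells. CLDN1 stood at rank 26 in the knockdown and rank 19 in the control, and VCAM1 at rank 7 and rank 12. At the bottom of both orders were NRXN3, CDH4, F11R, PCDH10 and NCAM1, each at or under 0.428 RPKM in both groups. Exon lengths merge all annotated isoforms, which lowers the value of genes with many of them, such as PCDH9.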

How the data were processed

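Raw counts of reads per Ensembl gene were deposited for 6 libraries of ribosome-depleted total RNA, made with CASAVA 1.7, GSNAP and HTSeq on hg19 per the submitters' processing notes. HTSeq's annotation and strand setting are not stated. Reads without a unique alignment were 64.4% to 66.6% of those listed in the knockdown and 67.6% to 68.8% in the control libraries. Reads in no annotated feature were 10.6% to 11.3% and 8.34% to 9.43%, so the groups did not overlap in either share. What part these differences have in the results was not tested. These reads stood in lines that name no gene and were left out with the other such lines, so that 11.9% to 13.7% were used. The authors' deposited table, made with DESeq 1.10.1 per the processing notes, holds per the file headers a ratio of group means, its log2 and p-values (its 3 columns of means were not used); its direction was checked against the counts.

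Counts were tested with edgeR 4.0.16 in R 4.3.3 (filterByExpr with a minimum count of 10, TMM, glmQLFit and glmQLFTest, group as the only term); a standard error is the log2 fold change over the square root of F. CPM values use TMM-scaled totals of gene counts. DESeq2 1.42.0, limma-voom 3.58.1, other scalings and filters, a replicate block and leaving out each library were alternatives, 15 refits in all, plus other thresholds. The steps were tested on simulated counts. Symbols came from a gene name table and exon lengths and chromosomes from GENCODE 29, which matched 47399 of 57659 identifiers; GENCODE 29 is not on hg19, and gene coordinates are left out. Libraries of a group differed by more than sampling noise (chi-square over its degrees of freedom, 25.2 to 37.7). Intervals of count ratios cover counting error only. The members and lists were chosen with earlier results of these data known. All members may be named; of the other lists, called genes, at most 6 per direction, with defining markers and those at 0. P-values weigh the group difference against the spread between these libraries, which edgeR estimates with help from the other genes. What that spread stands for is not known, as the set-up of the replicate cultures is not stated. FAT4, JAM2, MARVELD1, ZEB1 and SNAI2 were named outside that rule after their values were seen.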

Additional observations from a re-analysis of the deposited data

How the results depend on the processing

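All 13 adhesion genes called kept their direction in every one of 15 refits. CADM1, CLDN1, CLDN11, NRXN3, PCDH18, SDC4 and VCAM1 kept their call in all 15, and the other 6 lost it in 2 to 9. The number of adhesion genes called higher, 4, became 2 with a replicate block and 2 at an adjusted p under 0.01, and 2 to 3 when 1 library was left out. The number called lower, 9, became 5 at an adjusted p under 0.01, and 6 to 9 when 1 library was left out. Same-numbered libraries did not deviate together (correlations of deviations from group means -0.03, -0.02 and -0.17). Their reads listed were similar, at 44546003, 33193394 and 28350044 in the knockdown and 46821294, 32204507 and 28537921 in the control libraries. Whether a number stands for a shared preparation is not stated, and these correlations cannot decide it. The replicate block pairs libraries by number. Under it ALCAM, MCAM, CTNND1 and CD44 were not called (adjusted p = 0.0563, 0.0518, 0.0923 and 0.0586), 7 adhesion genes were called lower, and over all genes 230 were called higher and 186 lower, against 524 and 580. Over all genes, 1001 were higher and 1056 lower among the genes of the authors' table only, 173 and 144 at an adjusted p under 0.01, 908 and 973 at an adjusted p under 0.1, and 225 to 303 and 198 to 262 when 1 library was left out. Of the relatives, 9 were called lower; this became 15 among the genes of the authors' table only, 3 with the replicate block, 3 at an adjusted p under 0.01, and 3 to 6 when 1 library was left out. Among the adhesion genes, signs turned for 4, none of them called: CDH2 (0.0036 with upper-quartile scaling, -0.15 to 0.10 when 1 library was left out), CTNNB1 (0.0076 with upper-quartile scaling, 0.0065 among genes of the authors' table, -0.020 to 0.0072 when 1 library was left out), CDH6 (-0.082 to 0.011) and NCAM2 (-0.11 to 0.48), the last pair when 1 library was left out. The smaller fits hold fewer samples; other causes of these shifts were not tested. Depth limits PCDH10, NCAM1, F11R, CDH4, CADM4 and ICAM1, and also the knockdown level of NRXN3, which rests on 4, 5 and 3 counts.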
